A study of Mus musculus with 16 samples.

Results

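The 10 genes described here encode the major histocompatibility complex (MHC) class I molecules of the mouse and parts of the machinery that makes them. They are H2-K1, H2-D1, H2-Q4, H2-Q6, H2-Q7, H2-Q10, H2-T23, H2-M3, B2m and Tap1. They were taken by symbol from the 55487 genes of the count table, and all 10 passed the filter of at least 10 counts over all libraries, as did 24971 genes in all. The set was chosen by measured values, since several of its genes were lower in treated than in untreated Swhtr null slices, so that comparison is given as a description, without a test.

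Class I molecules display peptides from inside the cell to CD8 T cells and NK cells. Each consists of a heavy chain, encoded in the H2 complex, and the light chain β2-microglobulin, and it is loaded with peptides that the transporter of Tap1 and Tap2 pumps into the endoplasmic reticulum. H2-K and H2-D are the classical, highly polymorphic heavy chains, whereas the Q, T and M regions encode non-classical chains that vary less and have narrower tasks. Class I transcription is known to respond to interferons and NF-κB.

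RNA came from heart slices of male mice aged 8 weeks, which were cultured ex vivo. Untreated slices were kept for 14 days in 21% O2, and treated slices for 7 days in 3% O2 followed by 7 days in 21% O2. WT mice were C57Bl6/J, and Swhtr null mice were homozygous for an inserted transcriptional stop signal that terminates the long noncoding RNA Swhtr early. Each combination of genotype and treatment was sequenced in 4 libraries, 16 in all. The mutant line was made in embryonic stem cells of a 129S6/C57BL6 hybrid background, was backcrossed to C57BL6J and was kept by mating homozygotes. The H2 complex and Swhtr lie on the same chromosome, so the Swhtr allele and any flanking sequence of the other strain cannot be told apart. The 8 libraries of a genotype came from 4 mice, and which libraries share a mouse is not stated, so p-values may rest on fewer independent samples than libraries. Swhtr has no row under that name in the table and was not analysed here.

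Library totals ranged from 17830351 to 29941903 counts. The 10 cardiomyocyte markers, among them Myh6, Tnnt2 and Actc1, summed to 6.10 to 98.4 CPM (a read count scaled to a common library size) per library, against 22659 to 32840 CPM for 8 fibroblast markers and 1220 to 2103 CPM for 8 markers of blood vessel endothelium. The labelled heart tissue therefore showed little RNA of the defining heart muscle genes in all 16 libraries. The 12 markers of T, NK and B lymphocytes, the cells that read class I, summed to 0.679 to 1.94 CPM, and Cd3d was at 0 in all libraries. The treated Swhtr null library 2 stood apart from the other 3 of its group. It had the lowest sum of macrophage and monocyte markers of all libraries, and the values that it moved most are also given without it.

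Of the 10 genes, 9 lie on chromosome 17 and B2m on chromosome 2, in coordinates of GRCm38 with the gene models of GENCODE M21. H2-K1 (chr17:33996017-34000347, minus strand) and Tap1 (chr17:34187553-34197225, plus strand) form the proximal end. H2-D1 follows at chr17:35262730-35267499. The Q region genes come next on the plus strand, with H2-Q4 at chr17:35379617-35385290, H2-Q6 at chr17:35424850-35430055, H2-Q7 at chr17:35439155-35443773 and H2-Q10 at chr17:35470089-35474563. H2-T23 (chr17:36029773-36032855, minus strand) and H2-M3 (chr17:37270220-37274484, plus strand) are the most distal. B2m spans chr2:122147686-122153083.

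The heavy chain genes resemble each other in front of the gene as well as inside it. All 10 genes had a promoter entry in RefSeq (GRCm38.p6), and the 250 bases before each start were searched on both strands for 4 short motifs of class I promoters. TTTCACTT, the core of an interferon response element, stood before 7 of the 10 genes (H2-K1, H2-D1, H2-Q4, H2-Q6, H2-Q7, H2-Q10 and H2-M3) and before 1.36% of all 32851 promoters. GGGGATTCCCC, the palindromic NF-κB site of the H2-K1 promoter, stood before H2-K1, H2-D1 and H2-Q6 and before 0.0304% of all promoters. Its letters were read from the H2-K1 promoter itself, so that match was fixed in advance and the share is no measure of enrichment. TGACG, the core of the X2 box, stood before 7 of the 10 genes and before 17.8% of all promoters, and CCAAT stood before all but H2-Q10 and before 33.8% of all promoters. A match is a string of letters and not a shown binding site. The following windows of 120 bases each begin 30 bases before TTTCACTT and are written 5′ to 3′ on the gene's strand. They set the 3 Q genes with the lowest estimates after treatment beside H2-K1 and H2-Q4, whose estimates lay nearer to 0. Capitals mark the 4 motifs, and ATTGG is CCAAT on the other strand. The TGACG of H2-Q4 follows its ATTGG, whereas those of H2-K1 and H2-Q7 precede it, so the H2-Q4 match does not stand at the place of the X2 core of H2-K1.
H2-K1: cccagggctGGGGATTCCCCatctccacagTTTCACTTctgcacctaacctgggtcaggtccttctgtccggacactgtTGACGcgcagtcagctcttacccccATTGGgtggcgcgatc
H2-Q4: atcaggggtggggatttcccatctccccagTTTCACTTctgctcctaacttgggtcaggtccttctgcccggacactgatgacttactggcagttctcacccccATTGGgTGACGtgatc
H2-Q6: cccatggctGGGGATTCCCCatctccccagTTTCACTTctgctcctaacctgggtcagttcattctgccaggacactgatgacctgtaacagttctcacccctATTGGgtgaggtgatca
H2-Q7: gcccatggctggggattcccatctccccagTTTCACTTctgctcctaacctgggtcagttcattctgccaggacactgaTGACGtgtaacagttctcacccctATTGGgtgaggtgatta
H2-Q10: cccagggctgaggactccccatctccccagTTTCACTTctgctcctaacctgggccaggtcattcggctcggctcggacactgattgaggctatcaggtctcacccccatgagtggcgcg

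The windows lie at chr17:34000348-34000467 (minus strand) for H2-K1, chr17:35379434-35379553 for H2-Q4, chr17:35424668-35424787 for H2-Q6, chr17:35439012-35439131 for H2-Q7 and chr17:35469904-35470023 for H2-Q10 (all plus strand). No annotated exon overlaps 4 of them, and the window of H2-Q4 overlaps an exon of Gm11131, a gene on the opposite strand. H2-Q6 and H2-Q7 were 96.7% identical over the aligned window, H2-K1 and H2-D1 89.2%, H2-K1 and H2-Q4 85.0%, and H2-Q7 and H2-Q10 76.4%. The window of H2-M3 was the least like the others, with 59.6% to 65.6% identity.

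Transcripts of these genes are so alike that reads can be hard to assign. Of all stretches of 150 bases in the annotated transcripts, 9.9% of those of H2-Q4 also occurred in another gene (Gm11131), 6.0% of those of H2-Q6 (H2-Q7), 5.9% of those of H2-Q7 (H2-Q10, H2-Q6 and H2-Q5) and 3.4% of those of H2-Q10. The share was 1.4% for H2-D1, 1.0% for Tap1, 0.3% for H2-T23 and 0 for H2-K1, H2-M3 and B2m. For stretches of 75 bases it rose to 21.1% for H2-Q6, 20.7% for H2-Q4 and 12.5% for H2-Q10. How the counting treated reads with several matches and the strand is not given in the sources used here, so the split of counts among H2-Q6, H2-Q7 and H2-Q10, and between H2-Q4 and Gm11131, is uncertain.

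Levels per length of exon (CPM per kb of merged exons, mean over 16 libraries) spanned a wide range. B2m was highest with 887 CPM per kb, followed by H2-D1 with 341, H2-K1 with 126, H2-T23 with 24.6 and H2-M3 with 14.5. H2-Q4 had 6.94 CPM per kb, Tap1 3.47, H2-Q7 3.20, H2-Q6 2.67 and H2-Q10 1.55. The lowest library of B2m (570 CPM per kb) stood above the highest of H2-D1 (443), and the lowest of H2-Q4 (4.99) above the highest of Tap1 (4.24). The neighbours H2-K1 and H2-T23, and H2-M3 and H2-Q4, did not overlap either, whereas the remaining neighbours did. Among the 8 heavy chain genes, H2-D1 held 63.2% ± 0.240 (SD, n = 4) and H2-K1 26.9% ± 0.385 of the CPM in WT untreated slices, and in WT treated slices 64.3% ± 0.228 and 26.5% ± 0.194.

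**Figure D1:**
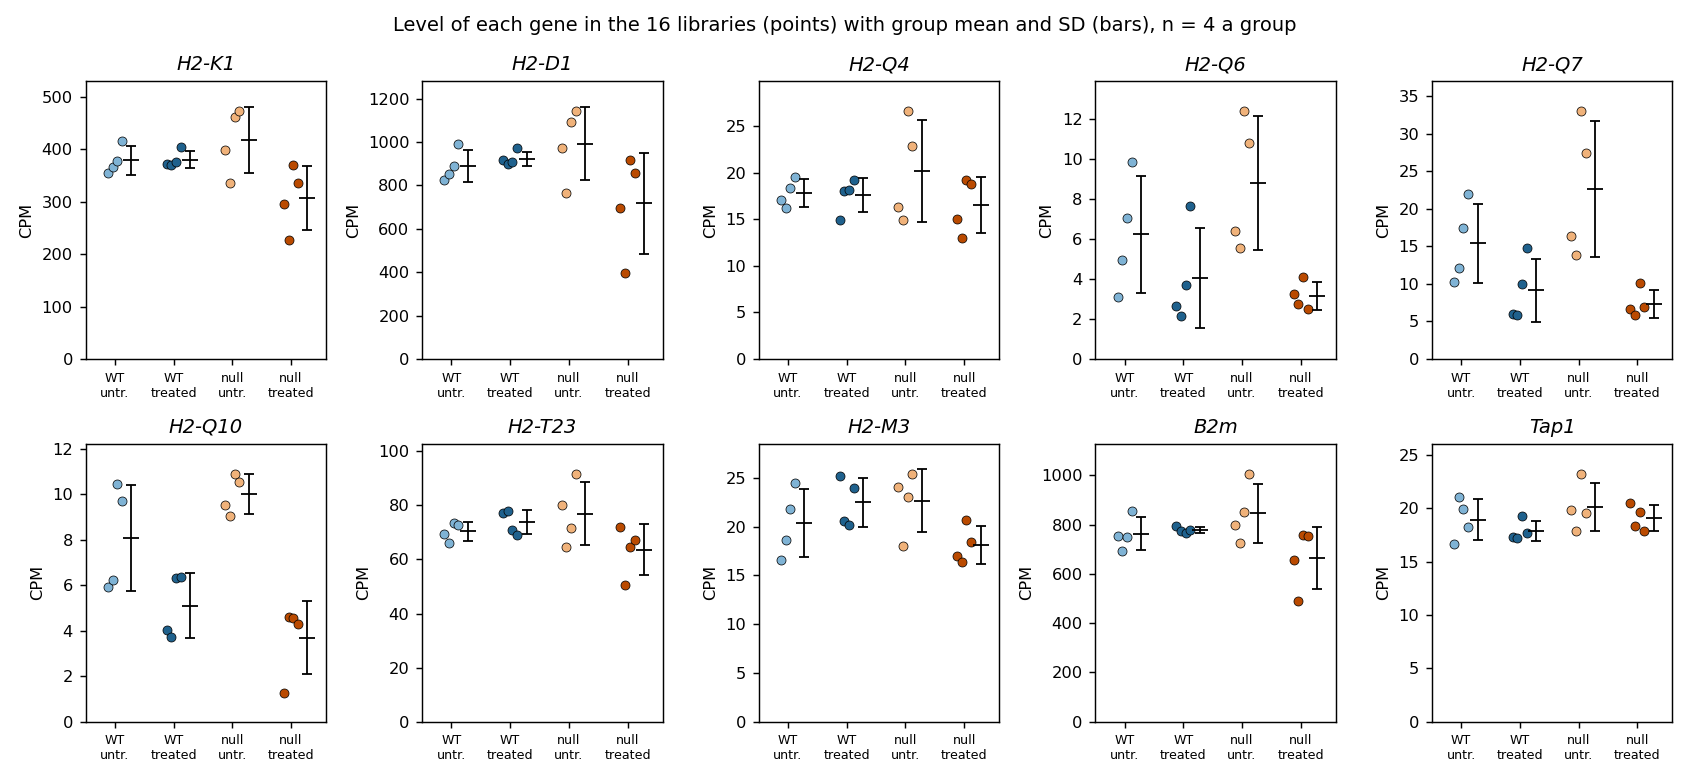
Level of each of the 10 class I genes in CPM (y axes from 0) for the 4 groups, with 1 point per library and the group mean ± SD as a bar. H2-Q6, H2-Q7 and H2-Q10 lie lower in treated than in untreated Swhtr null slices without overlap, and the treated Swhtr null library at 398 CPM of H2-D1 stands below the rest.

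The first question was whether hypoxia followed by normoxia changed class I transcripts in WT slices. The estimates of this comparison did not use the libraries on which the set was selected. Its SEs and p-values did, since the spread was estimated from all 16 libraries together. None of the 10 genes passed the test (edgeR quasi-likelihood, adjusted p under 0.05 and absolute log2 fold change over 0.58, adjusted p 0.999 for each), as was true of 0% of the 24971 genes, and DESeq2 and limma called none of the 10 either. At an unadjusted p under 0.05 there was 1 of the 10 genes, H2-Q10, against 4.81% of all genes. Without the treated Swhtr null library 1 its unadjusted p in edgeR was 0.0031 in place of 0.0469, with an adjusted p of 0.999 in both. Without the treated Swhtr null library 2 the SE of H2-D1 was 0.11 in place of 0.20. The median log2 fold change of the 10 genes was -0.01 and that of all genes 0.01. H2-K1 and H2-D1 were nearly level, and the 3 Q genes H2-Q6, H2-Q7 and H2-Q10 had the lowest estimates. The outcome for H2-Q7 depended on the replicate block. With the replicate number as a block within genotype it was called (-0.79, adjusted p 0.0019 in edgeR, background 0.0761%). With a block over all libraries none of the 10 was called. Same-numbered WT libraries were not all positively correlated, so this pairing is uncertain.

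H2-K1, a classical heavy chain, measured 354, 367, 377 and 416 CPM in the 4 WT untreated libraries and 372, 370.5, 376 and 404 CPM in the 4 WT treated ones. The groups overlapped fully, with a log2 fold change of 0.01 ± 0.12 (SE). H2-D1, the other classical heavy chain, measured 824, 852, 891 and 990 CPM untreated and 916, 901, 907 and 971 CPM treated, with a log2 fold change of 0.05 ± 0.20. B2m, the light chain, measured 753, 694, 749.7 and 854 CPM untreated and 796, 774, 765 and 780.0 CPM treated. Its log2 fold change was 0.03 ± 0.12, and in all 3 genes the treated libraries lay within the range of the untreated ones.

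H2-Q7, which encodes a Qa-2 heavy chain, measured 10.3, 12.1, 17.4 and 21.9 CPM in WT untreated libraries and 6.05, 5.84, 9.94 and 14.7 CPM in WT treated ones. Of the 4 treated libraries, 3 lay below all untreated ones and 1 lay among them. The log2 fold change was -0.75 ± 0.37 with an unadjusted p of 0.0628. H2-Q6, another Qa-2 gene, measured 3.10, 4.94, 7.05 and 9.87 CPM untreated and 2.66, 2.15, 3.72 and 7.67 CPM treated, with a log2 fold change of -0.62 ± 0.42 and an unadjusted p of 0.165. The WT library numbered 4 was the highest for both genes in both groups, and without the treated one the log2 fold changes were -1.08 for H2-Q7 and -1.13 for H2-Q6, both with an adjusted p of 0.900 in edgeR. H2-Q10, a heavy chain known as a secreted product of the liver, measured 5.93, 6.25, 10.5 and 9.73 CPM untreated and 4.02, 3.73, 6.30 and 6.36 CPM treated. Its log2 fold change was -0.67 ± 0.31 with an unadjusted p of 0.0469, and the 2 higher treated libraries overlapped with the 2 lower untreated ones.

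The remaining genes had estimates near 0 in WT slices. H2-T23, which encodes Qa-1, a ligand of the NK cell receptor CD94/NKG2, ranged from 65.9 to 73.6 CPM untreated and from 69.0 to 77.8 CPM treated (log2 fold change 0.07 ± 0.10). H2-M3, which presents formylated peptides of bacteria and mitochondria, ranged from 16.6 to 24.4 CPM untreated and from 20.2 to 25.2 CPM treated (0.14 ± 0.12). H2-Q4, a further Q region heavy chain, ranged from 16.2 to 19.6 CPM and from 14.9 to 19.2 CPM (-0.02 ± 0.16). Tap1, a subunit of the peptide transporter, ranged from 16.6 to 21.0 CPM and from 17.2 to 19.3 CPM (-0.08 ± 0.09).

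**Figure D2:**
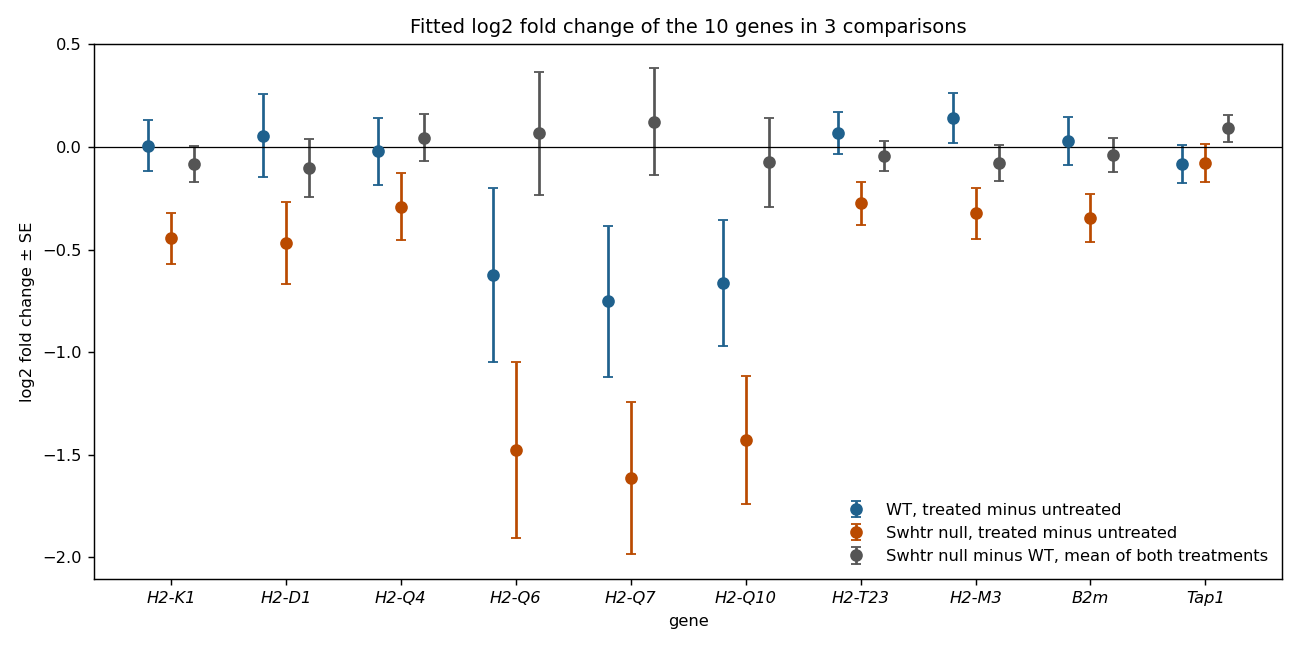
Fitted log2 fold change ± SE (y axis) of the 10 genes (x axis) for treated against untreated WT slices, treated against untreated Swhtr null slices, and Swhtr null against WT slices averaged over both treatments. The genotype averages lie between -0.10 and 0.12, the WT values between -0.75 and 0.14, and the Swhtr null values between -1.61 and -0.08.

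In Swhtr null slices all 10 genes had a lower mean after treatment. These are the values on which the set was selected, so they carry no test. Of the 10 genes, 2 (H2-Q7 and H2-Q10) were among the called genes, which made up 0.621% of all genes tested, and nothing is read from that count. H2-Q7 measured 16.4, 13.8, 33.0 and 27.4 CPM in the untreated libraries and 6.68, 5.81, 10.1 and 6.96 CPM in the treated ones, a log2 fold change of -1.61 ± 0.37. H2-Q6 measured 6.40, 5.57, 12.4 and 10.8 CPM untreated and 3.25, 2.76, 4.11 and 2.51 CPM treated (-1.48 ± 0.43). H2-Q10 measured 9.55, 9.05, 10.9 and 10.6 CPM untreated and 1.28, 4.61, 4.58 and 4.30 CPM treated (-1.43 ± 0.31). In these 3 genes the groups did not overlap, which held in the lower direction for 5.13% of the 14229 genes with a mean of at least 1 CPM.

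The classical genes and the light chain were lower by less in Swhtr null slices, and their groups overlapped. H2-K1 measured 399, 336, 462 and 473 CPM untreated and 295, 227, 369.5 and 335 CPM treated (log2 fold change -0.45 ± 0.12). H2-D1 measured 971, 765, 1092 and 1143 CPM untreated and 695, 398, 918 and 859 CPM treated (-0.47 ± 0.20). B2m measured 800.4, 727, 849.6 and 1007 CPM untreated and 657, 490.4, 756 and 754 CPM treated (-0.35 ± 0.12). The second library was the lowest of its group in all 3 genes, untreated and treated alike. Without the treated library 2 the log2 fold changes were -0.33 for H2-K1, -0.27 for H2-D1 and -0.23 for B2m, and -1.51 for H2-Q7, -1.42 for H2-Q6 and -1.55 for H2-Q10. The values of H2-D1 and B2m then shrank by more than 1.5-fold, as did those of H2-T23 (-0.18) and H2-Q4 (-0.19), and none of the 10 genes was called.

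The remaining genes had smaller values in Swhtr null slices. H2-M3 ranged from 18.1 to 25.4 CPM untreated and from 16.4 to 20.7 CPM treated (log2 fold change -0.32 ± 0.12). H2-T23 ranged from 64.6 to 91.7 CPM and from 50.4 to 72.1 CPM (-0.28 ± 0.10). H2-Q4 ranged from 14.96 to 26.6 CPM and from 12.95 to 19.2 CPM (-0.29 ± 0.16). Tap1 ranged from 17.8 to 23.2 CPM and from 17.8 to 20.5 CPM (-0.08 ± 0.09), the same estimate as in WT slices. With the replicate number as a block within genotype, 3 of the 10 genes (H2-Q6, H2-Q7 and H2-Q10) were called, against 2.47% of all genes. The set was selected on this comparison, so nothing is read from that count either. Same-numbered Swhtr null libraries had positively correlated deviations from their group means, though not always the highest correlations.

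Whether the response differed between the genotypes was asked with the difference of the 2 responses, Swhtr null minus WT, which contains the same Swhtr null libraries. The set was selected for lower values after treatment in those libraries, which favours negative estimates here. The p-values of this comparison are therefore given as a description and not as a test. The 9 genes other than Tap1 had negative estimates, from -0.86 ± 0.52 for H2-Q7 and -0.85 ± 0.60 for H2-Q6 to -0.27 ± 0.23 for H2-Q4, with -0.76 ± 0.43 for H2-Q10, -0.52 ± 0.29 for H2-D1 and -0.45 ± 0.18 for H2-K1. Tap1 was at 0.00 ± 0.13. None of the 10 genes was called by edgeR, as for 0% of all genes, with adjusted p from 0.715 to 1 and an unadjusted p under 0.05 for 4 of the 10 genes (H2-K1, H2-T23, H2-M3 and B2m) against 6.89% of all genes. DESeq2 and limma called 0 genes as well. Without the treated Swhtr null library 2 the estimates were -0.32 for H2-D1, -0.33 for H2-K1 and -0.17 for H2-Q4, and 3 of the 10 genes had an unadjusted p under 0.05. The outcome depended on the replicate block, whose pairing by number is uncertain. Same-numbered libraries were positively correlated in Swhtr null slices, though not always best matched, and in WT slices not all were positively correlated. With the block within genotype H2-Q7 was called (-0.78, adjusted p 0.025 in edgeR, background 0.216%), and H2-K1, H2-D1 and B2m had adjusted p of 0.0159, 0.0329 and 0.0404 below the fold threshold, whereas the block over all libraries called none of the 10.

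Whether loss of Swhtr shifted class I levels irrespective of treatment was asked with the genotype difference averaged over treatment. It uses the same Swhtr null libraries as the response on which the set was selected. It is independent of that response only where untreated and treated Swhtr null libraries spread equally. H2-D1 spread more among the treated ones, so the selection may bear on this comparison too. None of the 10 genes was called by edgeR, DESeq2 or limma, against 0.132% of all genes by edgeR, and none had an unadjusted p under 0.05, against 4.89%. The log2 fold changes ran from -0.10 ± 0.14 for H2-D1 to 0.12 ± 0.26 for H2-Q7, with adjusted p of 0.976 or higher in edgeR. H2-K1 was at -0.08 ± 0.09, B2m at -0.04 ± 0.08, H2-Q10 at -0.07 ± 0.22 and Tap1 at 0.09 ± 0.07. The precision was thus finest for Tap1 and coarsest for H2-Q6, whose SE was 0.30. Without the treated Swhtr null library 2 the estimates rose to -0.0245 for H2-K1, -0.0025 for H2-D1, 0.0209 for B2m and 0.006 for H2-T23. The lowest estimate, that of H2-D1, thus rested largely on that library. Other estimates moved away from 0, to -0.134 for H2-Q10 and 0.17 for H2-Q7.

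Within single treatments the genotype differences had opposite signs. In untreated slices all 10 genes had a higher estimate in Swhtr null than in WT slices, from 0.09 ± 0.09 for Tap1 to 0.55 ± 0.36 for H2-Q7, and none was called (background 0.1%). In treated slices 9 of the 10 genes had a lower estimate in Swhtr null slices, from -0.46 ± 0.31 for H2-Q10 to -0.09 ± 0.16 for H2-Q4, and none was called (background 0.0921%). H2-K1 and B2m did not overlap between the treated groups, where 2.94% of genes did not overlap in the lower direction, but the gaps were small, with the highest Swhtr null library at 369.5 CPM of H2-K1 and the lowest WT library at 370.5 CPM. Without the treated Swhtr null library 2 the values in treated slices were -0.19 for H2-K1, -0.11 for B2m and 0.01 for H2-Q4. Both comparisons use libraries on which the set was selected.

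Along chromosome 17, the class I genes start between 7.16 Mb (H2-K1) and 10.4 Mb (H2-M3) from the start of Nkx2-5, the cardiac transcription factor gene next to Swhtr. Of the 167 genes tested from H2-K1 to H2-M3, 0 were called by edgeR in the averaged genotype difference and 7 had an unadjusted p under 0.05 (4.19%). Of the 200 genes tested between Nkx2-5 and H2-K1, 0 were called and 5 had an unadjusted p under 0.05 (2.50%). On the whole chromosome 4 of 1205 genes were called (0.332%). Those called included, on the side of the class I genes, Olfr111, an olfactory receptor gene 10.7 Mb from Nkx2-5 and thus beyond H2-M3 (log2 fold change -0.71 ± 0.14, adjusted p 0.0316 in edgeR). They also included, on the far side of Nkx2-5, Amdhd2, a gene of amino sugar metabolism 2.68 Mb from Nkx2-5 (0.77 ± 0.10, adjusted p 0.00187). Both were singled out after their values were seen, and the Swhtr allele and flanking sequence cannot be told apart in them.

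**Figure D3:**
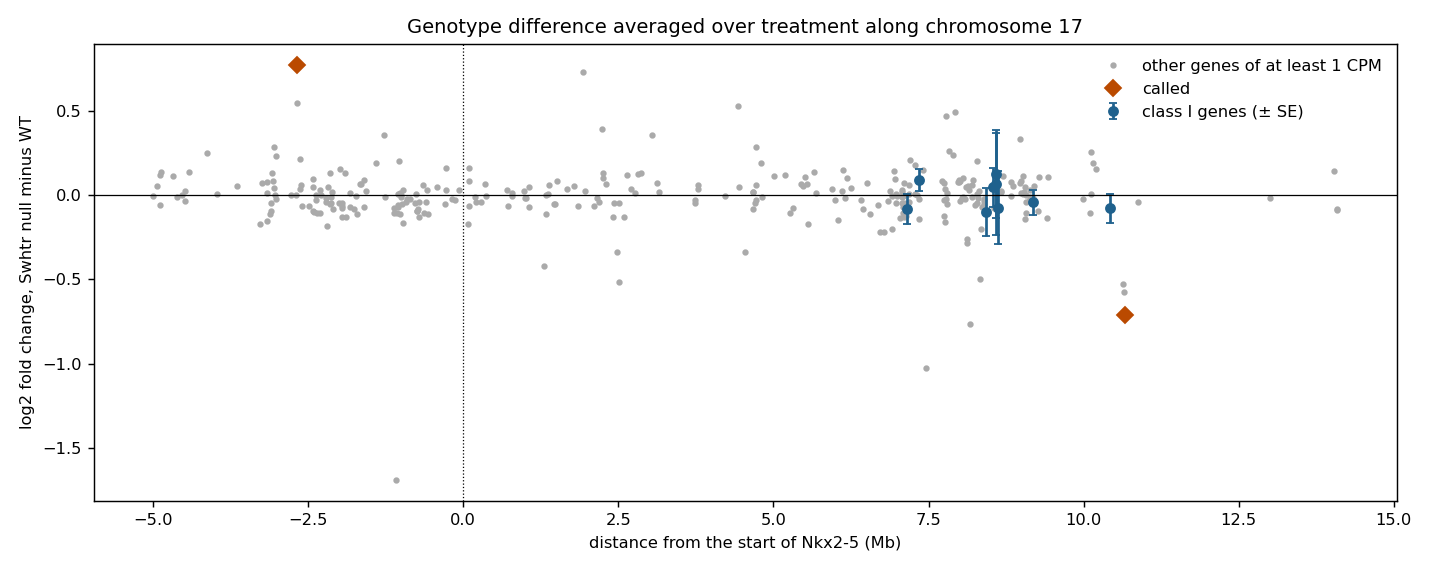
Log2 fold change of Swhtr null against WT slices averaged over treatment (y axis) by distance from the start of Nkx2-5 in Mb (x axis) for genes with a mean of at least 1 CPM, with the 9 class I genes of chromosome 17 shown ± SE and called genes as diamonds. The class I genes lie between -0.10 and 0.12, and neither of the called genes in view lies among them.

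The classical genes were then set against the Q and T region genes within each library, which removes the library's scaling. The 4 Q genes together averaged 3.72% and 2.74% of the CPM of H2-K1 and H2-D1 in untreated and treated WT libraries and 4.32% and 3.13% in those of Swhtr null slices. The difference of the mean log2 ratio, treated minus untreated, was -0.45 in WT and -0.47 in Swhtr null slices, and both pairs of groups overlapped. The 3 genes H2-Q6, H2-Q7 and H2-Q10 were grouped after their lower estimates had been seen, so the direction of their ratio was fixed by that choice. They amounted to 1.64%, 1.91%, 2.75% and 2.95% of the CPM of H2-K1 and H2-D1 in WT untreated libraries and to 0.989%, 0.923%, 1.56% and 2.09% in WT treated ones. In Swhtr null slices they amounted to 2.36%, 2.58%, 3.63% and 3.02% untreated and to 1.13%, 2.11%, 1.46% and 1.15% treated. The difference of the mean log2 ratio was -0.77 in WT slices, where the groups overlapped, and -1.01 in Swhtr null slices, where they did not.

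H2-Q4, the remaining Q gene, amounted to 1.33% to 1.45% of the classical CPM in WT untreated libraries and to 1.16% to 1.42% in WT treated ones, and to 1.19% to 1.71% and 1.49% to 2.07% in untreated and treated Swhtr null libraries. Its difference of the mean log2 ratio was -0.07 in WT and 0.23 in Swhtr null slices. H2-T23 amounted to 5.57% on average in WT untreated libraries (SD 0.09 on the log2 scale) and to 5.67% in WT treated ones, a difference of the mean log2 ratio of 0.02. In Swhtr null slices it went from 5.50% to 6.50%, a difference of 0.22, with the treated libraries spread from 5.02% to 8.06% and the highest value in library 2.

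**Figure D4:**
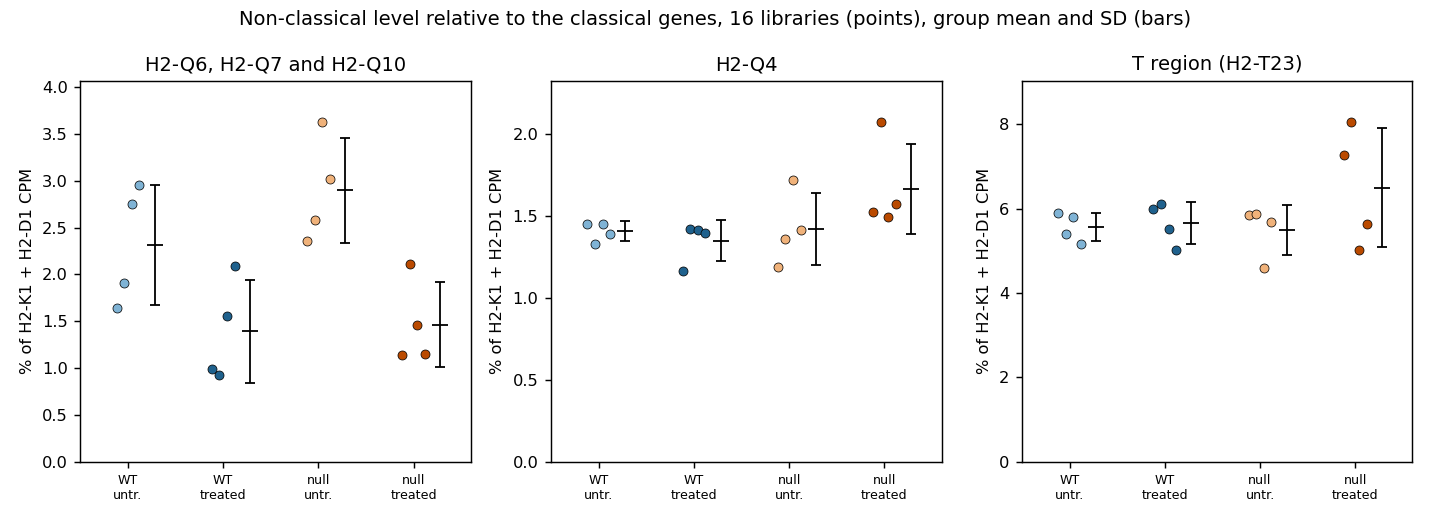
Summed CPM of H2-Q6, H2-Q7 and H2-Q10, of H2-Q4 and of H2-T23 as a percentage of the summed CPM of H2-K1 and H2-D1 (y axes from 0), with 1 point per library and group mean ± SD. The 3 Q genes average 2.31% and 1.39% in untreated and treated WT slices and 2.90% and 1.46% in Swhtr null ones, while H2-Q4 and H2-T23 overlap between the treatments in both genotypes.

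Markers of macrophages and monocytes, cells that are rich in class I, had lower estimates beside the class I genes in Swhtr null slices. The 10 markers summed to 9795 to 12282 CPM in untreated and 9373 to 10924 CPM in treated WT libraries, and to 8098 to 13144 CPM and 4047 to 10290 CPM in those of Swhtr null slices, and none of them was at 0. All 10 had a lower estimate after treatment in Swhtr null slices, with a median log2 fold change of -0.55, and 9 of 10 in WT slices, with a median of -0.11, and none was called in either. In WT slices the class I genes did not go the same way, since 5 had a higher and 5 a lower estimate and their summed level averaged 2187 CPM untreated and 2232 CPM treated. The treated Swhtr null library 2 had both the lowest marker sum (4047 CPM) and the lowest sum of H2-K1 and H2-D1 (625 CPM), and the untreated library 4 the highest of both (13144 and 1617 CPM). For H2-Q6, H2-Q7 and H2-Q10 the lowest sum among treated Swhtr null libraries was that of library 1 (11.2 CPM), with 13.2 CPM in library 2. The part of these cells in the class I values was not tested, and in bulk RNA fewer cells of a type and less RNA per cell cannot be told apart. In the Swhtr null response 10 of 10 cardiomyocyte markers had a higher estimate (median 2.78), as had 8 of 8 fibroblast markers (median 0.27) and 7 of 8 endothelial markers (median 0.26). Of these, 1 fibroblast marker was called higher, against 0.316% of all genes. An unadjusted p under 0.05 in edgeR was found for 6 cardiomyocyte, 3 fibroblast and 3 endothelial markers (higher, 8.69% of all genes) and for 4 macrophage and monocyte markers (lower, 7.84%). The treated Swhtr null library 2 had the highest sum of all libraries for cardiomyocyte (98.4 CPM), fibroblast (32840 CPM) and endothelial markers (2103 CPM). Their part in the class I values was not tested either.

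**Figure D5:**
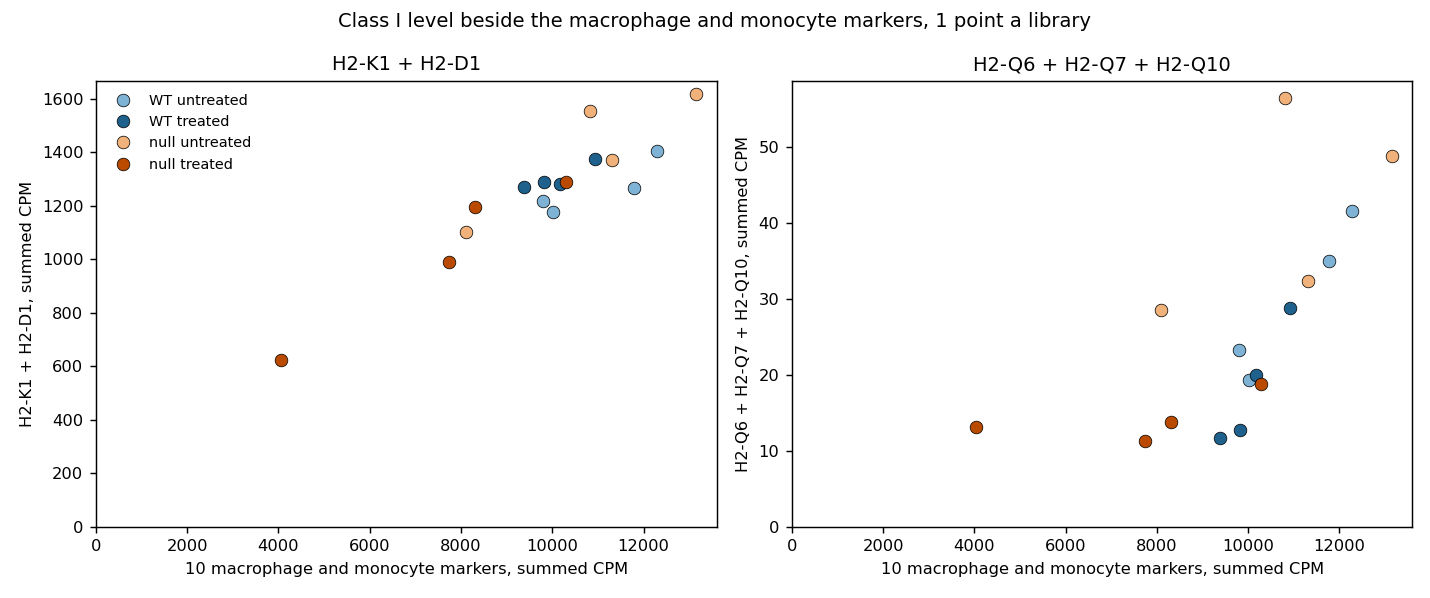
Summed CPM of H2-K1 and H2-D1 (left) and of H2-Q6, H2-Q7 and H2-Q10 (right) against the summed CPM of 10 macrophage and monocyte markers, 1 point per library. The library at 4047 CPM of markers has 625 CPM of the classical genes, and the 3 Q genes reach 11.2 to 18.8 CPM in treated and 28.5 to 56.4 CPM in untreated Swhtr null libraries.

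Other genes of the class I pathway did not pass the test in the WT response or in the averaged genotype difference. Of 12 further genes of antigen processing and peptide loading, 10 had a higher and 2 a lower estimate in the WT response (median 0.06), and 3 a higher and 9 a lower one in the averaged genotype difference (median -0.06), where the median over all genes was 0.01 in the WT response. Tapbpl, a relative of tapasin that edits peptides, was at -0.20 ± 0.08 in the genotype difference, and Psme2, a subunit of the proteasome activator PA28, at -0.12 ± 0.05. Psmb10, a catalytic subunit of the immunoproteasome, was at -0.18 ± 0.09. Tap2, the partner of Tap1, was at 0.09 in the same comparison and averaged 21.0 and 23.3 CPM in untreated and treated WT slices and 22.1 and 25.2 CPM in Swhtr null ones.

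Regulators and receptors of class I were not called either. Of 10 transcriptional regulators, 6 had a higher and 4 a lower estimate in the WT response and none was called. In the Swhtr null response 4 had a higher and 6 a lower estimate (median -0.03, range -0.46 to 0.17). None was called there, though the lowest adjusted p was 0.0167 in edgeR, below the fold threshold. Rfxap, a subunit of the RFX complex that binds class I and class II promoters, was at -0.31 ± 0.10 in the WT response (adjusted p 0.999 in edgeR), Rfxank, another subunit, was at 0.20 ± 0.11 in the averaged genotype difference, and Nfkb1, a subunit of NF-κB, at -0.08 ± 0.04. Of 9 class I receptors, 4 could be tested and none was called. Lilr4b, Pirb and Lilrb4a, which encode immunoglobulin-like receptors of myeloid cells, averaged 524, 210.4 and 155 CPM over all libraries, and the other tested receptor, Cd160, averaged 0.331 CPM. The receptor genes that were not tested are those of lymphocytes, whose markers were near 0.

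Class I-like genes outside the complex and further class I genes inside it were not called either. Of 9 tested class I-like genes, 5 had a higher and 4 a lower estimate in the WT response, with 0.52 ± 0.20 for Cd1d1, which presents lipids to NKT cells, and -0.22 ± 0.12 for Mr1, which presents vitamin B metabolites. Raet1e, a ligand of the receptor NKG2D, was at 0.19 ± 0.10 in the averaged genotype difference. Of 24 other class I genes of the complex, 12 were tested and 7 were at 0 in all libraries. Of these 12, 9 had a lower estimate in the WT response and 9 in the Swhtr null response, with medians of -0.17 and -0.59. H2-T22, a T region gene seen by γδ T cells, was the most abundant with 40.9 CPM on average and was at 0.06 ± 0.07 in the WT response. H2-T10, its close relative, averaged 3.53 CPM and was at -0.20 ± 0.21, and H2-M2 averaged 1.42 CPM and was at -0.53 ± 0.31 in the averaged genotype difference. H2-Q5, which was looked up after its values were seen because it shares transcript sequence with H2-Q7 and H2-Q10, averaged 2.18 and 1.13 CPM in WT untreated and treated slices and 2.09 and 1.05 CPM in Swhtr null ones.

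Interferon-stimulated genes, which often move with class I, did not pass the test. Of 24 genes, 20 had a higher and 4 a lower estimate in the WT response (median 0.13), and in the Swhtr null response 9 had a higher and 15 a lower one (median -0.11), with none called in either. Their summed level was 212 to 219 CPM in untreated and 219 to 236 CPM in treated WT libraries, and 190.1 to 256 CPM and 214 to 227 CPM in those of Swhtr null slices. Ifit1, an RNA-binding interferon effector, had the smallest p in the averaged genotype difference (0.86 ± 0.25, adjusted p 0.547 in edgeR) at a mean of 1.24 CPM. Irf7 and Rsad2, an interferon regulatory factor and an antiviral enzyme, were at 0.38 ± 0.21 and 0.31 ± 0.17. Within untreated slices 21 of the 24 genes had a higher and 3 a lower estimate in Swhtr null slices (median 0.27). None was called, and 5 were higher at an unadjusted p under 0.05 in edgeR, against 2.72% of all genes. Within treated slices 12 were higher and 12 lower (median 0.01), and none was called.

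Class II genes, which present peptides from outside the cell, were low and none was called. Their 7 genes summed to 31.3 to 87.0 CPM in WT libraries and 26.9 to 67.5 CPM in Swhtr null ones. In the WT response Cd74, the invariant chain, was at 2.75 ± 0.90 and H2-Eb1, a class II β chain, at 2.23 ± 0.68, with adjusted p of 0.999 in edgeR. Both values rested largely on WT treated library 4, which had 19.5 CPM of Cd74 and 7.20 CPM of H2-Eb1, against 1.17 to 4.20 CPM and 0.659 to 0.993 CPM in the other treated libraries. H2-DMa, which loads class II molecules, was at 0.18 ± 0.13 in the averaged genotype difference.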

How the data were processed

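RNA was measured by paired-end sequencing in 16 libraries of heart slices. The authors aligned the reads with STAR to mm10 (GRCm38), counted them per Ensembl gene and deposited raw counts. The paper's methods (rRNA depletion) and the labels (a kit for mRNA) name different library kits. The sources used here do not state the strand setting. Symbols and positions came from GENCODE M21, which held 55227 of the 55487 identifiers. The 24971 genes that reached 10 counts over all libraries were fitted in R 4.3.3 with edgeR 4.0.16 (TMM, robust quasi-likelihood test, 4 group means, 12 residual degrees of freedom), and p-values were adjusted by the method of Benjamini and Hochberg over all of them. Calls required an adjusted p under 0.05 together with a log2 fold change beyond 0.58 in either direction. CPM are TMM-scaled.

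The 10 genes, the other gene lists and the tests were chosen with earlier results of these data known. Besides the 10 genes, the text names from each list (marker lists apart) the genes called in the WT response or in the averaged genotype difference, plus up to 3 with the smallest p in the latter and a mean of at least 1 CPM. The levels of Tap2, Cd160 and H2-Q5, the values of Amdhd2 and Olfr111 and the markers named were chosen after their values were seen. Alternatives were DESeq2 1.42.0, limma 3.58.1 with quality weights, other scaling, filters and libraries, replicate blocks, each library left out, and summed Q genes. The sum of H2-Q6 and H2-Q7 and the group of H2-Q6, H2-Q7 and H2-Q10 were chosen after seeing the data. Same-numbered untreated and treated libraries had correlations between their deviations of 0.15 to 0.59 in Swhtr null slices and of -0.11 to 0.32 in WT slices. Both replicate blocks used the numbers in both genotypes. The correlations made the numbers a possible pairing of the Swhtr null libraries only. Even there the best match did not always share the number. Untreated library 1 correlated at 0.20 with treated library 4 and at 0.15 with treated library 1. Treated library 3 correlated at 0.33 with untreated library 4 and at 0.26 with untreated library 3. No pair of libraries of the same group agreed within sampling noise (lowest chi-square per degree of freedom 7.62), and pairs across groups were not compared in this way. The fit was tested on simulated counts. SDs are over 4 libraries and include counting error, which was not separated from the spread between libraries. The lowest count of any of the 10 genes in a library was 28, for H2-Q10.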

Additional observations from a re-analysis of the deposited data

Results flagged for a closer look

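Of the 40 groups of 4 libraries (10 genes in 4 groups), 2 held a library far from the other 3 by Dixon's criterion, which chance does for about 1 in 20 groups. H2-K1 measured 403.6 CPM in WT treated library 4 against 370.5 to 376 CPM in the others of its group. H2-Q10 measured 1.28 CPM in Swhtr null treated library 1 against 4.30 to 4.61 CPM in the others. Without that library the log2 fold change of H2-Q10 in Swhtr null slices was -1.16 in place of -1.43. In the fit without a replicate block, no difference of the responses between the genotypes had an adjusted p under 0.05 in edgeR for the 10 genes.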

How the results depend on the processing

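No gene of the 10 was called in the WT response, in the difference of the responses or in any genotype difference under the alternatives run, with 1 exception. With the replicate number as a block within genotype, H2-Q7 was called in the WT response (-0.79, adjusted p 0.0019 in edgeR) and in the difference of the responses (-0.78, adjusted p 0.025), so each count went from 0 to 1. In the difference, H2-K1 (-0.46, adjusted p 0.0159), H2-D1 (-0.58, 0.0329) and B2m (-0.39, 0.0404) also came under 0.05, but below the fold threshold. The selection of the set favours negative values in the difference, so its p-values are given as a description. That fit called 19 genes (0.0761%) in the WT response and 54 (0.216%) in the difference. Same-numbered WT libraries were not all positively correlated, and the pairing of the Swhtr null libraries by number is uncertain. The other block, over all libraries, called 2 genes and 0 of the 10 in the WT response, and both blocks called 3 of the 10 in Swhtr null slices. Counts of the 10 genes in Swhtr null slices concern the comparison on which the set was selected, and nothing is read from them. In the Swhtr null response the count of 2 became 1 without a filter, with limma, with H2-Q4, H2-Q6 and H2-Q7 summed and with H2-Q6 and H2-Q7 summed, and 0 with only the libraries compared. Leaving out a library gave 0 to 3, with 0 without Swhtr null untreated library 3 or 4 or treated library 2. Called genes in all numbered 155 there, 544 by adjusted p alone, 464 with DESeq2, 6 with only the libraries compared, 450 and 616 with the blocks, and 22 to 574 with a library left out. In the WT response 0 genes became 9 with DESeq2, 3 with limma, 1 by adjusted p alone, without a filter or with only the libraries compared, and 0 to 3 with a library left out. DESeq2 called 52 genes in place of 33 in the averaged genotype difference and 39 in place of 23 in treated slices. Values near 0 changed sign with a library left out. Their ranges were -0.0235 to 0.0556 (H2-K1), -0.0653 to 0.049 (H2-Q4) and -0.0128 to 0.0886 (B2m) in the WT response. They were -0.14 to 0.0609 (H2-Q10), -0.0365 to 0.10 (H2-Q4), -0.0443 to 0.32 (H2-Q6), -0.0869 to 0.0209 (B2m) and -0.0901 to 0.006 (H2-T23) in the averaged genotype difference. They were -0.17 to 0.0108 (H2-Q4), -0.57 to 0.15 (H2-Q6) and -0.50 to 0.0221 (H2-Q7) in treated slices, and -0.0485 to 0.0816 (Tap1) in the difference of the responses. With limma B2m turned to 0.005 in the averaged genotype difference and Tap1 to -0.0241 in the difference of the responses. The ratios of Q and T region to classical genes moved by less than their spread under the alternatives run. The causes were not tested. Near-identical transcripts, low counts of H2-Q6 and H2-Q10 and the sharing of mice between libraries limit what these values show.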
